A study of Mus musculus with 8 samples.

Results

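The genes described here are 10 immediate early genes of mouse hepatic macrophages, Fos, Fosb, Jun, Junb, Jund, Egr1, Atf3, Ier2, Nr4a1 and Dusp1, of 22180 genes measured. Each was read from the array row that carries only its symbol, and for Jund, which has more than 1 such row, from the brightest of them on average. The samples were hepatic macrophages of FVB/N male mice aged 8 wk with acetaminophen-induced liver injury, in which the drug kills hepatocytes. The rCPS1 group (4 arrays) had received 50 µg of recombinant CPS1, a mitochondrial enzyme of the urea cycle, and the rTF group (4 arrays) 25 µg of recombinant transferrin, the iron carrier of plasma. Both proteins were given through the tail vein 12 h before 350 mg/kg of acetaminophen, which both groups received, so protein and protein mass changed together and no group without injury is included. All titles read Mouse1 with a replicate number, so whether the replicates of a group are separate mice is not settled, and the p-values rest on the spread among these 8 arrays, part or all of which may be technical.

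Immediate early genes are switched on within minutes of a stimulus, without new protein synthesis, by MAP kinases that act on factors such as SRF and CREB already bound to their promoters. Most encode transcription factors that go on to change a second wave of genes, and in macrophages they respond to danger signals, cytokines, phagocytosis and stress. Their transcripts are short-lived, so their level mirrors recent signalling. Fos and Jun proteins pair through leucine zippers to form AP-1, EGR1 is a zinc finger factor, NR4A1 an orphan nuclear receptor, and DUSP1 a phosphatase that switches the MAP kinases off again.

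The promoters of Fos, Jun, Dusp1 and Atf3 are printed because the first 3 of these genes moved together from array to array, as described further on. Atf3 did not follow them over all 8 arrays, although for Fos and Dusp1 that depended on which arrays were kept. Each sequence is the 250 bases before the RefSeq start (GRCm38.p6), read along the gene's strand, at chr12:85473640-85473889 for Fos (+ strand), chr4:95052223-95052472 for Jun (- strand), chr17:26508473-26508722 for Dusp1 (- strand) and chr1:191183334-191183583 for Atf3 (- strand). Capitals mark TGACG or TGANNTCA on either strand.
Fos: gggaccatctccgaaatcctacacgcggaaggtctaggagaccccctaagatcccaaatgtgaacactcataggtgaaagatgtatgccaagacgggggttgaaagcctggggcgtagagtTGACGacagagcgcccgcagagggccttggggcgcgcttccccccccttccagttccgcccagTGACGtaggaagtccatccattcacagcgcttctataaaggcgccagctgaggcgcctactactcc
Jun: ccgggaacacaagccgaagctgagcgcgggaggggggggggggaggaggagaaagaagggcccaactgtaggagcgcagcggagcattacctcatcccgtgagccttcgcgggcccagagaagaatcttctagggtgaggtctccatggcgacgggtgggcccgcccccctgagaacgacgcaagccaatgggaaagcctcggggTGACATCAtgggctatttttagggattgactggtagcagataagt
Dusp1: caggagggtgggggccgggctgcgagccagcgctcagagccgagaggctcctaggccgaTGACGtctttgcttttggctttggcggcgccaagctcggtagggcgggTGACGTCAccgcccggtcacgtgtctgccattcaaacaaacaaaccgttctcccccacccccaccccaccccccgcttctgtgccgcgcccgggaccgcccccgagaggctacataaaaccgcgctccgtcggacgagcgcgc
Atf3: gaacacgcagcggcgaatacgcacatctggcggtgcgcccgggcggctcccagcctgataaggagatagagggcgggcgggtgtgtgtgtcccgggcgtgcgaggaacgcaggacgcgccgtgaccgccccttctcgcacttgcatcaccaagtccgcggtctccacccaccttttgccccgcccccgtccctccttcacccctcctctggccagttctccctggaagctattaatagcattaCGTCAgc

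TGACG is the core of the cyclic AMP response element, which CREB and ATF proteins bind, and TGANNTCA is the longer form of the AP-1 and ATF site. Fos held TGACG 129 and 66 bases before its start, and Dusp1 held it 191, 143 and 140 bases before. The Dusp1 matches at 143 and 140 are both strands of 1 full element, TGACGTCA, which also counts as TGANNTCA. Jun held TGACATCA, a TGANNTCA match, 45 bases before its start, and Atf3 held TGACG on the opposite strand 7 bases before. Of the 8 members with an entry in the promoter table (all but Egr1 and Ier2), 6 held TGACG and 3 held TGANNTCA, against 17.8% and 11.9% of 32851 windows of the same length. The shorter AP-1 site TGANTCA was in 0 of the 8 windows (6.75% of all windows), the CArG box of SRF in 0 (1.47%) and the EGR site GCGNGGGCG in 2 (4.70%). These are matches of letters, not binding. Sequence outside these windows, and the promoters of Egr1 and Ier2, were not searched. The counts of 0 therefore do not show that the members lack a CArG box or the shorter AP-1 site.

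Levels are the deposited log2 values, in which 1 unit is a doubling, made with RMA, a normalization that forces all arrays to a common distribution. The arrays' medians lay between 3.55 and 3.68, and pairs of arrays correlated at 0.967 to 0.983 across array rows. The number of arrays limits the precision: a gene's group difference had a standard error of 0.15 in the median. In the RNA, the Kupffer cell markers Clec4f (9.11 to 10.25) and Vsig4 (9.09 to 10.24) were measured on each array, and so were the sinusoidal endothelial gene Clec4g (12.35 to 12.56) and the hepatocyte gene Alb (11.02 to 11.96). Levels of different probe sets do not give cell shares, and how the cells were isolated is not given in the sources used here. In such bulk samples fewer cells of a type and less RNA per cell cannot be told apart.

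The comparison asks whether recombinant CPS1 given before acetaminophen changes transcripts of hepatic macrophages, here the immediate early ones. No member differed detectably between rCPS1 and rTF arrays, and the groups overlapped for each. In limma, fitted over all genes with Benjamini-Hochberg adjustment, 0 of 10 members had an adjusted p under 0.05, against 0% of the 22180 genes, and 0 of 10 had an unadjusted p under 0.05, against 4.67%. The groups of arrays did not overlap for 0 of 10 members, against 2.92% of all genes. The log2 differences, rCPS1 minus rTF, ran from -0.27 for Jund to 0.12 for Atf3, with standard errors of 0.13 to 0.25, adjusted p of 0.980 to 0.995 and two-sided exact permutation p of 0.314 to 0.943. The exact test over the 70 assignments of the arrays can go no lower than 0.0286. The limma 95% intervals reached from -0.73 at the lowest (Jund) to 0.42 at the highest (Atf3), that is, from 0.601-fold to 1.33-fold.

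**Figure D1:**
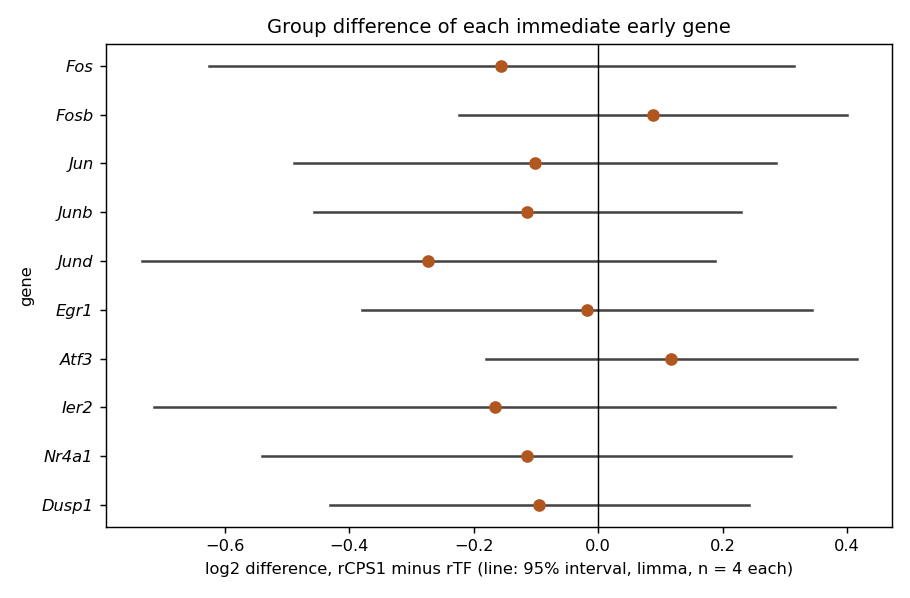
Log2 difference (rCPS1 minus rTF) of each immediate early gene on the horizontal axis, with its 95% interval from limma (n = 4 arrays each) as a line. Every interval crosses 0, and the points lie between -0.27 and 0.12.

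Of the 10 members, 8 were lower on average on rCPS1 arrays and 2 were higher, against 54.4% of all genes lower. Their median log2 difference was -0.11, against -0.018 over all genes. The count rests on single arrays: it was 3 of 10 lower without rTF replicate 2 and 5 of 10 without rCPS1 replicate 3.

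Fos encodes the founding partner of AP-1. Its log2 level on rCPS1 replicates 1 to 4 was 8.22, 8.43, 7.66 and 8.35, against 8.00, 8.79, 8.33 and 8.16 on rTF replicates 1 to 4. Replicate 3 was low among the rCPS1 arrays, replicate 2 was high among the rTF arrays, and the groups overlapped. The group means were 8.16 ± 0.35 with rCPS1 and 8.32 ± 0.34 with rTF (SD, n = 4 each), a difference of -0.16 ± 0.21 (SE; limma adjusted p = 0.980). Without rTF replicate 2 the difference was 0.00044, and without rCPS1 replicate 3 it was 0.014.

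Fosb encodes a relative of FOS that also needs a JUN protein to bind DNA. It was at 10.58, 10.52, 10.08 and 10.65 on the rCPS1 arrays, against 10.29, 10.30, 10.47 and 10.41 on the rTF arrays. As many as 3 of the 4 rCPS1 arrays lay above every rTF array, and rCPS1 replicate 3 lay below them all. The mean was 10.45 ± 0.26 with rCPS1 and 10.37 ± 0.086 with rTF (SD, n = 4 each), a difference of 0.088 ± 0.14 (SE; limma adjusted p = 0.981). Without rCPS1 replicate 3 that difference was 0.21, and without rCPS1 replicate 4 it was 0.024.

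Among the JUN genes, Jun encodes the main activating partner of AP-1. Jun was at 10.62, 11.02, 10.53 and 11.07 on the rCPS1 arrays, against 10.59, 11.20, 11.03 and 10.83 on the rTF arrays. Both groups spread over about the same range, and the difference was -0.10 ± 0.17 (SE; limma adjusted p = 0.981). It was -0.0066 without rCPS1 replicate 3 and -0.0067 without rTF replicate 2. Junb encodes a partner that often restrains JUN and is strongly used in macrophages. Junb was at 9.81, 9.68, 9.16 and 9.62 on the rCPS1 arrays, against 9.54, 9.82, 9.80 and 9.59 on the rTF arrays. Here rCPS1 replicate 3 was the low array and the other 7 overlapped, with a difference of -0.11 ± 0.15 (SE; limma adjusted p = 0.980), or 0.022 without that array.

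Jund encodes the JUN protein that is least dependent on stimulation, and it had the largest group difference of the members. It was at 9.50, 9.41, 8.64 and 9.54 on the rCPS1 arrays, against 9.38, 9.74, 9.73 and 9.34 on the rTF arrays. The rCPS1 mean was 9.27 ± 0.42 and the rTF mean 9.55 ± 0.22 (SD, n = 4 each), a difference of -0.27 ± 0.21 (SE; limma adjusted p = 0.980). Replicate 3 alone was low among the rCPS1 arrays, and without it the difference was -0.063. A dimmer row of the same gene, at 5.12, 5.18, 4.95 and 5.18 on the rCPS1 arrays and 4.98, 5.87, 5.16 and 5.47 on the rTF arrays, gave -0.26 ± 0.18 (SE; limma adjusted p = 0.980). That row also had its lowest value in rCPS1 replicate 3, but its high array was rTF replicate 2 alone.

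Atf3 encodes a stress-induced leucine zipper factor that represses many inflammatory genes of macrophages. Atf3 was at 11.02, 10.97, 10.83 and 11.31 on the rCPS1 arrays, against 10.87, 10.73, 11.06 and 10.99 on the rTF arrays. Its high array was rCPS1 replicate 4, and its low array was rTF replicate 2, where most of the other members were highest. The mean was 11.03 ± 0.20 with rCPS1 and 10.91 ± 0.15 with rTF (SD, n = 4 each), a difference of 0.12 ± 0.13 (SE; limma adjusted p = 0.980). Without rCPS1 replicate 4 the Atf3 difference was 0.025, without rTF replicate 2 it was 0.056, and without rCPS1 replicate 3 it was 0.19.

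Egr1 is induced by ERK signalling through SRF and helps set the genes of monocyte differentiation. It was at 10.44, 10.57, 10.14 and 10.48 on the rCPS1 arrays, against 10.10, 10.69, 10.64 and 10.27 on the rTF arrays. Egr1 had the smallest group difference of the members, -0.018 ± 0.16 (SE; limma adjusted p = 0.995), with rTF replicates 2 and 3 above every rCPS1 array and rTF replicate 1 below them all. Its sign turned when rCPS1 replicate 3 (0.074), rTF replicate 2 (0.072) or rTF replicate 3 (0.053) was left out.

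Nr4a1 encodes a nuclear receptor that limits inflammatory gene expression in macrophages and that patrolling monocytes need. Nr4a1 was at 10.11, 9.86, 9.75 and 10.11 on the rCPS1 arrays, against 9.88, 10.65, 9.80 and 9.97 on the rTF arrays. Replicate 2 stood above the other rTF arrays, which lay within the span of the rCPS1 arrays. The difference was -0.12 ± 0.19 (SE; limma adjusted p = 0.981), and 0.077 without that array.

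Ier2 encodes a small nuclear protein of the early response to growth factors. Ier2 was at 7.11, 7.69, 7.59 and 7.65 on the rCPS1 arrays, against 7.02, 8.29, 7.72 and 7.68 on the rTF arrays. It had the widest span over the 8 arrays, 1.27, with replicate 1 low in both groups and rTF replicate 2 high. The mean was 7.51 ± 0.27 with rCPS1 and 7.67 ± 0.52 with rTF (SD, n = 4 each), a difference of -0.17 ± 0.25 (SE; limma adjusted p = 0.981), or 0.038 without rTF replicate 2.

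Dusp1, the feedback phosphatase, removes phosphate from p38 and JNK. It was at 10.76, 10.87, 10.53 and 10.77 on the rCPS1 arrays, against 10.56, 11.14, 10.96 and 10.65 on the rTF arrays. The rTF arrays spread more widely and enclosed all rCPS1 values but that of replicate 3. The difference was -0.095 ± 0.15 (SE; limma adjusted p = 0.981), or 0.010 without rTF replicate 2.

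**Figure D2:**
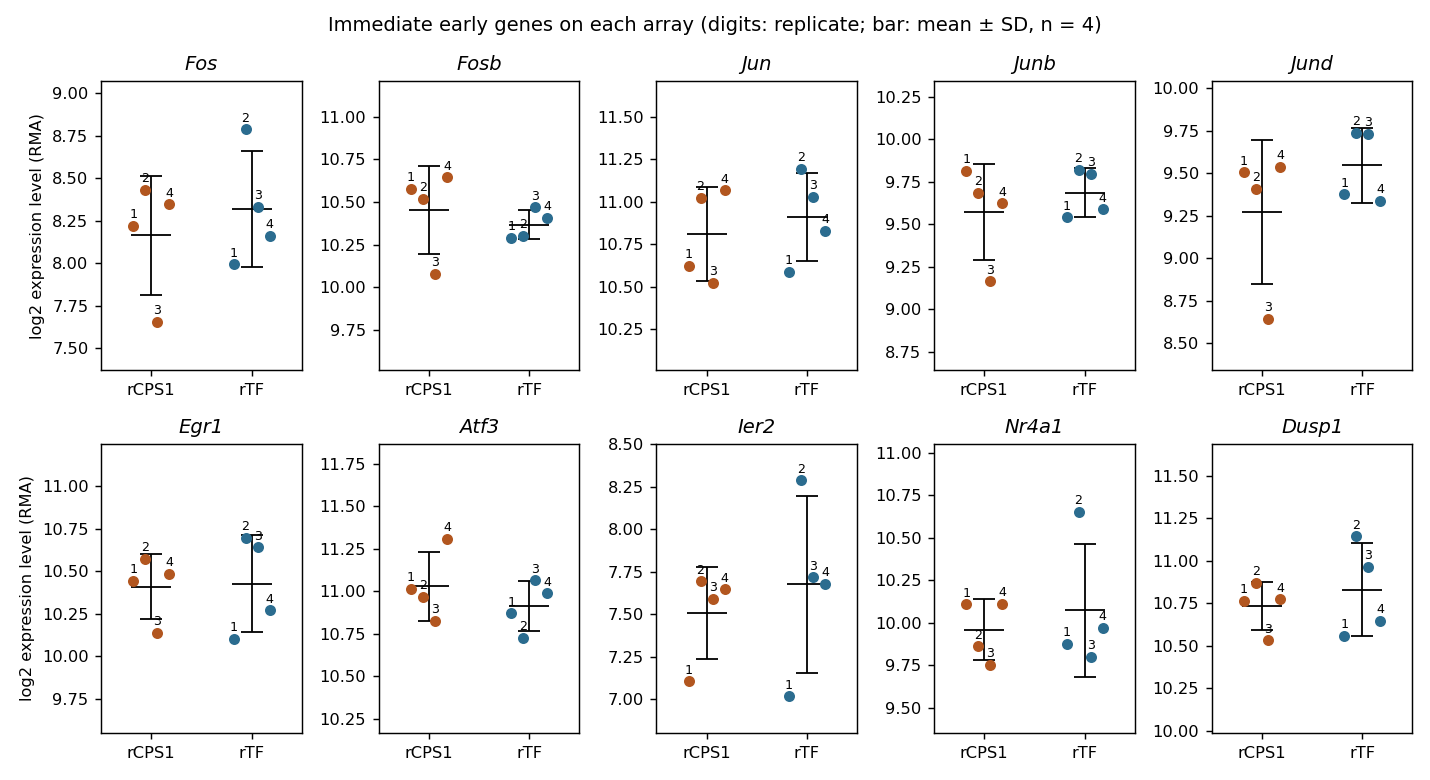
Log2 expression level (RMA) of each immediate early gene on each array, with rCPS1 left of rTF; digits give the replicate, and bars the mean ± SD of 4 arrays. All panels span the same number of log2 units. The groups overlap for all 10 genes, with rCPS1 replicate 3 at the bottom and rTF replicate 2 at the top of many panels.

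What varied was the array, within both groups and in many members at once. rTF replicate 2 held the highest value of 8 of the 10 members (all but Fosb and Atf3), whereas 19.9% of all genes were highest there. rCPS1 replicate 3 held the lowest value of 7 of the 10 (all but Egr1, Atf3 and Ier2), whereas 16.3% of all genes were lowest there. With each member centred on its own mean over the 8 arrays, the members' average deviation on rCPS1 replicates 1 to 4 was -0.015, 0.070, -0.34 and 0.12 log2 units, against -0.21, 0.30, 0.12 and -0.045 on rTF replicates 1 to 4. All 10 members lay below their own mean on rCPS1 replicate 3, and all 10 did so on rTF replicate 1. A member's span over the 8 arrays was 0.57 to 1.27 log2 units.

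**Figure D3:**
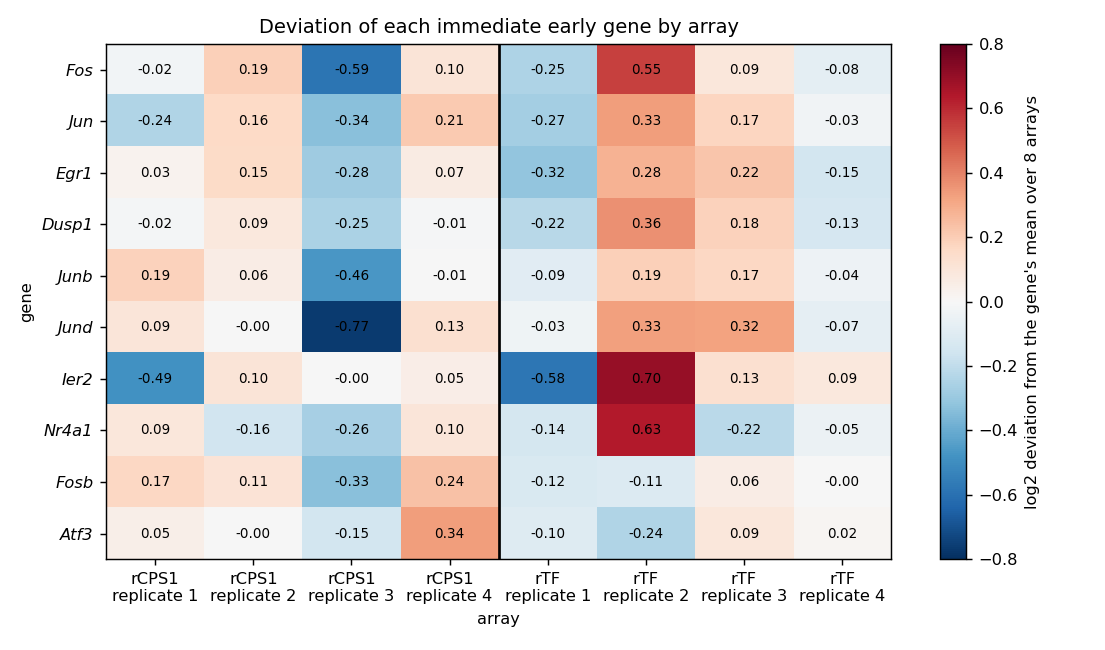
Deviation of each immediate early gene (rows) from its own mean over 8 arrays, in log2 units, on each array (columns; rCPS1 left of the black line, rTF right). rCPS1 replicate 3 and rTF replicate 1 are below the mean for all 10 genes, and rTF replicate 2 is above it for 8, with Fosb and Atf3 the exceptions.

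Members were correlated over the 8 arrays in 45 pairs, a description in which all pairs share the same arrays and normalization. Pearson's r was positive in 41 of the 45 pairs, with a median of 0.62. In the exact permutation test over all orders of the arrays, 12 pairs had an adjusted p under 0.05 (14 by Spearman's rho). The same counts over pairs of other genes were not computed, so whether they are particular to the members is not shown. Egr1 and Dusp1, a transcription factor and a phosphatase, were the closest pair, with r = 0.956 (exact permutation p = 0.000174, adjusted p = 0.00781) and rho = 0.976 (exact p = 0.000397, adjusted p = 0.0179). Without the 2 arrays farthest from the median of Egr1, rCPS1 replicate 3 and rTF replicate 1, r was 0.940. Fos and Dusp1 had r = 0.920 (exact permutation p = 0.000893, adjusted p = 0.010) and rho = 0.929 (exact p = 0.00223, adjusted p = 0.0342), and r = 0.862 without rCPS1 replicate 3 and rTF replicate 2.

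Fos and Jun, the classical AP-1 partners, had r = 0.886 (exact permutation p = 0.00057, adjusted p = 0.010) and rho = 0.905 (exact p = 0.00456, adjusted p = 0.0342). Leaving out rCPS1 replicate 3 and rTF replicate 2 gave r = 0.849. Junb and Jund had r = 0.949 (exact permutation p = 0.0032, adjusted p = 0.0288) and rho = 0.857 (exact p = 0.0107, adjusted p = 0.0402), with r = 0.70 without the same arrays. Fos and Jund, at r = 0.856 (exact permutation p = 0.00928, adjusted p = 0.041) and rho = 0.810 (exact p = 0.0218, adjusted p = 0.0612), rested more on those arrays, since r was 0.449 without them.

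Fosb, Nr4a1 and Atf3 were in none of the 12 pairs. The r of Atf3 with the members other than Fosb lay between -0.25 and 0.26. Without rCPS1 replicate 4 and rTF replicate 2, Atf3 had r = 0.854 with Dusp1, 0.421 with Nr4a1 and 0.262 with Ier2. Without rCPS1 replicate 3 and rTF replicate 2 it had 0.543 with Fos, 0.480 with Jund and 0.149 with Junb. Without rCPS1 replicate 3 and rTF replicate 1 it had -0.355 with Egr1 and -0.171 with Jun. Fosb had r = 0.683 with Junb and 0.650 with Jund, but 0.402 and -0.082 without rCPS1 replicates 3 and 4. Nr4a1 had 0.745 with Fos, but -0.010 without rCPS1 replicate 3 and rTF replicate 2. With each other Fosb and Atf3 had r = 0.796 (exact permutation p = 0.0189, adjusted p = 0.0601) and rho = 0.810 (exact p = 0.0218, adjusted p = 0.0612). With each group's own mean removed first, r was 0.976 for Egr1 and Dusp1, 0.880 for Fos and Jun, and 0.780 for Fosb and Atf3, so these pairs ran together within the groups.

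**Figure D4:**
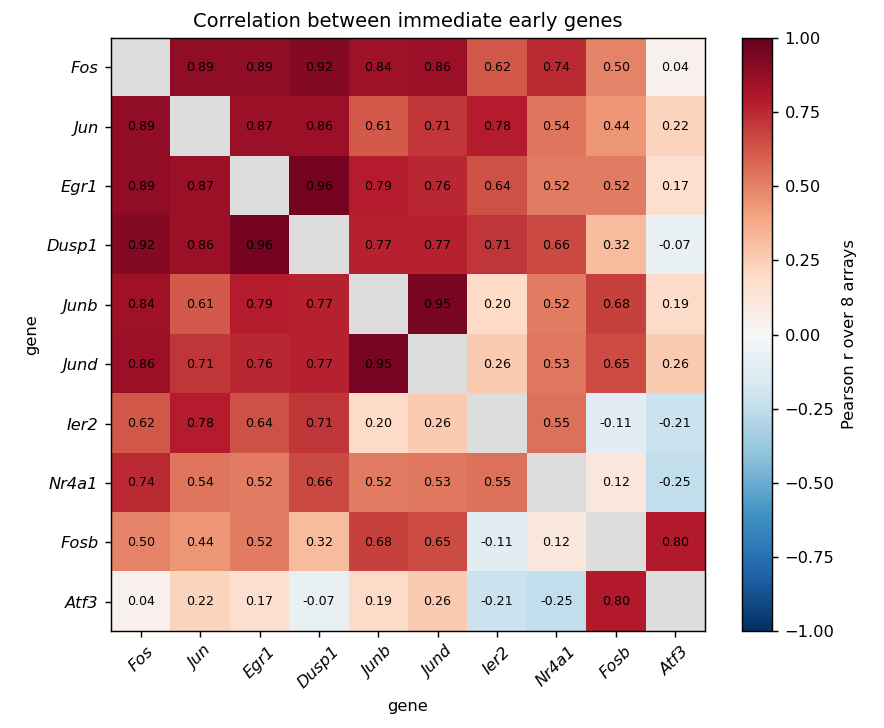
Pearson's r over 8 arrays for each pair of immediate early genes (rows and columns; grey on the diagonal). The block of Fos, Jun, Egr1, Dusp1, Junb and Jund runs from 0.61 (Jun and Junb) to 0.96 (Egr1 and Dusp1). Atf3 lies between -0.25 and 0.26 with all but Fosb (0.80).

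Among 10387 genes above the median level (members, predicted genes, small RNA and chemoreceptor genes left out), those whose levels over the 8 arrays were most like the members' average were Ciart (r = 0.981), Med9 (0.976), Nudcd3 (0.969), Klf2 (0.968), Efna1 (0.959), Fam167b (0.954), Fam117b (0.953) and Cdc42ep1 (0.948). These values were picked as the highest of many and carry no test. Klf2 encodes a flow- and quiescence-linked factor of endothelial cells, macrophages and T cells, and Ciart a repressor of the circadian clock. Klf2 was at 7.88, 8.13, 7.51 and 8.32 on the rCPS1 arrays, against 7.53, 8.67, 8.26 and 8.08 on the rTF arrays. The members' average was itself highest in rTF replicate 2 and lowest in rCPS1 replicate 3. All 8 of these genes shared both extremes, which their selection for a like pattern favours. Of 32 further immediate early genes, Klf2 among them, 15 (46.9%) had an r over 0.5 with the members' average, against 21.1% of the genes compared, and their median r was 0.498, against 0.126. Per1, a clock gene that CREB induces (r = 0.861), and Ccn1, a matricellular protein gene (r = 0.809), chosen after their values were seen, were among those closest. Others of the 32 ran the opposite way, with Trib1 (r = -0.602) and Ier3 (-0.388) the lowest.

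Other genes moved on the same arrays, not always in the members' direction. In rTF replicate 2, 8 of 9 T and NK cell genes were at their highest (19.9% of all genes were). The mean log2 level of those 9 genes lay between 5.80 and 6.30 on rCPS1 arrays and between 6.08 and 7.28 on rTF arrays. The 7.28 was in rTF replicate 2, and the 6.30 in rCPS1 replicate 3, where the members were lowest. Of 10 heat shock genes, which respond to heat, handling and misfolded protein, 6 were highest in rTF replicate 2 (19.9% of all genes were). In rTF replicate 1, 9 of these 10 genes were lowest (13% of all genes were). Their mean was 8.93 to 9.25 on rCPS1 arrays and 8.58 to 9.42 on rTF arrays. The 10 Kupffer cell genes had their highest mean, 10.30, in rCPS1 replicate 3 (rCPS1 9.59 to 10.30, rTF 9.52 to 10.10), where the members were lowest, and the 8 sinusoidal endothelial genes averaged 11.39 there (rCPS1 11.39 to 11.56, rTF 11.28 to 11.53). In rTF replicate 1, where all 10 members also lay below their means, the Kupffer cell mean was the highest of the rTF arrays, 10.10. The endothelial mean there, 11.28, was the lowest of the 8 arrays, with 6 of 8 endothelial genes lowest there (13% of all genes were). The 7 stellate cell genes averaged 4.69 there (rCPS1 4.84 to 5.43, rTF 4.69 to 5.77) and the 5 B cell genes 5.39 (rCPS1 5.42 to 6.69, rTF 5.39 to 6.39). The part of these genes' cells, or of handling, in the members' spread was not tested.

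The rest of the pathway likewise held no gene past the threshold. Of 32 further immediate early genes, 21 were lower and 11 higher with rCPS1, against 54.4% of all genes lower. Their median difference was -0.10 against -0.018 over all genes, and 1 (against 4.67% of all genes) had an unadjusted p under 0.05. That gene was Ptgs2, the inducible cyclooxygenase that makes prostaglandins, at 7.78, 8.36, 8.40 and 7.76 on rCPS1 arrays, against 8.26, 8.86, 8.72 and 8.49 on rTF arrays. The groups overlapped, with a difference of -0.51 ± 0.19 (SE; limma unadjusted p = 0.0261, adjusted p = 0.980) and an exact permutation p of 0.114. With 1 array left out at a time the unadjusted p of Ptgs2 reached 0.0769. Btg1, an antiproliferative gene, was next at -0.21 ± 0.12 (SE; limma adjusted p = 0.980), or -0.12 without rCPS1 replicate 1. All 7 infiltrating monocyte genes were also lower with rCPS1 (54.4% of all genes were), 6 of them with an unadjusted limma p under 0.05 (4.67% of all genes). Their mean level lay between 7.81 and 7.99 on rCPS1 arrays and between 8.41 and 8.86 on rTF arrays. Their part in the values of Ptgs2 and of Dusp2 was not tested.

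Of 13 other AP-1 and related leucine zipper partners, 8 were higher and 5 lower (54.4% of all genes were lower). Only 1, Batf2, had a limma unadjusted p under 0.05 (4.67% of all genes). Batf2, an interferon-induced partner of JUN proteins, was at 9.21, 8.81, 8.80 and 9.34 on rCPS1 arrays, against 8.72, 7.67, 8.79 and 8.68 on rTF arrays. The groups did not overlap (2.92% of all genes did not), but the gap between them was narrow, and rTF replicate 2 stood far below the rest. The difference was 0.57 ± 0.25 (SE; limma unadjusted p = 0.0452, adjusted p = 0.980; exact permutation p = 0.0286), and 0.31 without rTF replicate 2 (limma unadjusted p = 0.0866). Maff, a small MAF protein gene, differed by -0.17 ± 0.12 (SE; limma adjusted p = 0.980), or -0.12 without rTF replicate 3, and the list's median was 0.041.

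Of 11 other MAP kinase phosphatase genes, 6 were higher and 5 lower (54.4% of all genes were lower), with a median of 0.013. Only 1, Dusp2, had a limma unadjusted p under 0.05 (4.67% of all genes). Dusp2, a nuclear phosphatase of immune cells, was at 7.79, 7.55, 7.33 and 7.78 on rCPS1 arrays, against 8.10, 7.95, 7.97 and 8.01 on rTF arrays. Every rCPS1 array lay below every rTF array (the groups did not overlap for 2.92% of all genes). The difference was -0.40 ± 0.13 (SE; limma unadjusted p = 0.0116, adjusted p = 0.980; exact permutation p = 0.0286). Leaving out 1 array at a time gave differences of -0.45 to -0.30. Dusp4 differed by 0.082 ± 0.12 (SE; limma adjusted p = 0.981), with 0.024 without rTF replicate 1 and 0.16 without rCPS1 replicate 3.

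Upstream, 21 of 27 listed kinases and factors that switch these genes on were measured. Of these, 8 were higher and 13 lower (54.4% of all genes were lower), with a median of -0.022. A limma unadjusted p under 0.05 was found for 0 of the 21 (4.67% of all genes). The transcription factor gene Srf differed by -0.21 ± 0.12 (SE) and the ERK-activated kinase gene Rps6ka3 by 0.20 ± 0.15, each with a limma adjusted p of 0.980. Without rCPS1 replicate 3 Srf differed by -0.12, and without rTF replicate 2 Rps6ka3 differed by 0.048. Heat shock genes, 7 higher and 3 lower, had a median of 0.039, and 0 had a limma unadjusted p under 0.05. Among them Hspd1 differed by -0.13 ± 0.21 (SE) and Hspa1b by 0.11 ± 0.18, with limma adjusted p of 0.981 each. Both signs turned with 1 array left out, Hspd1 to 0.028 without rTF replicate 2 and Hspa1b to -0.074 without rTF replicate 1.

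Downstream, of 18 genes with promoters known to be driven by AP-1 or EGR1, 14 were lower and 4 higher, with a median of -0.076. Over all genes 54.4% were lower. Only 1 of the 18, Mmp9, had a limma unadjusted p under 0.05 (4.67% of all genes). Mmp9, a gelatinase that neutrophils and macrophages secrete, was at 6.22, 6.0, 6.29 and 4.82 on rCPS1 arrays, against 6.42, 6.73, 7.21 and 6.93 on rTF arrays. Every rCPS1 array lay below every rTF array (the groups did not overlap for 2.92% of all genes). The difference was -0.99 ± 0.31 (SE; limma unadjusted p = 0.00979, adjusted p = 0.980; exact permutation p = 0.0286), or -0.65 without rCPS1 replicate 4. All 9 neutrophil marker genes were also lower with rCPS1 (54.4% of all genes were), 7 of them with an unadjusted limma p under 0.05 (4.67% of all genes). Their mean level lay between 4.86 and 5.77 on rCPS1 arrays and between 6.08 and 6.97 on rTF arrays, and the part of neutrophils in the Mmp9 value was not tested. Plau, the urokinase gene, differed by 0.35 ± 0.17 (SE; limma adjusted p = 0.980), or 0.22 without rCPS1 replicate 3.

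**Figure D5:**
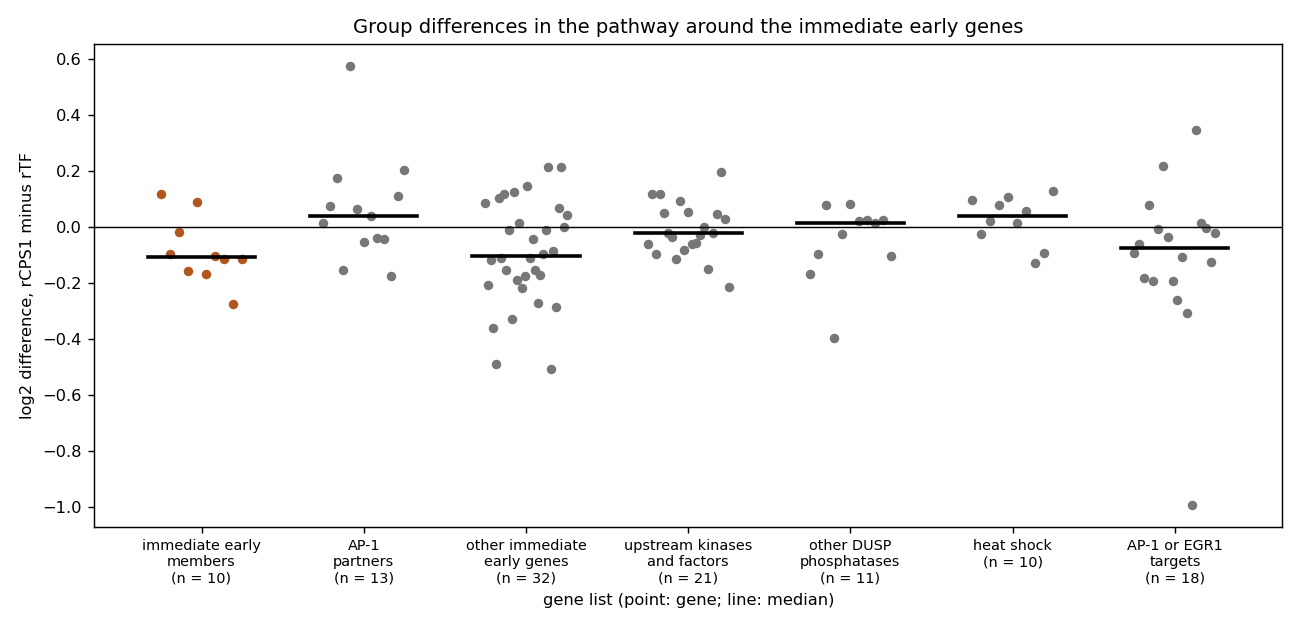
Log2 difference (rCPS1 minus rTF) of each measured gene in the 10 immediate early members and in the lists around them, with a black line at each list's median. The medians lie between -0.11 and 0.041, and the gene farthest from 0 is Mmp9 at -0.99.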

How the data were processed

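The data are 8 Affymetrix arrays of total RNA (400 ng, Qiagen RNeasy extraction, WT Plus labelling, per the labels' protocols), 4 rCPS1 and 4 rTF, grouped by their titles. The values are log2 levels deposited by the authors and made with RMA, per the submitters' processing notes, which also name limma. Genome build and probe filters are not given in the sources used here. Of 41345 rows, 23521 carry exactly 1 gene symbol in the platform annotation, 1814 several and 16010 none. The row of highest mean stood for each gene, which left 22180 genes, dim ones included. limma 3.58.1 (R 4.3.3, lmFit and eBayes, two-sided, no covariate, Benjamini-Hochberg adjustment at 0.05) was fitted over all genes and tested on simulated data. Those data were drawn independently for each gene and array, so they do not test the fit where many genes shift on the same array. Single genes were also compared by exact permutation over 70 assignments. Promoters are from RefSeq, and 8 of 10 members matched by symbol. The members and all lists were chosen with earlier results of these data known. The genes named are the members, the 2 of smallest p in each pathway list and the 8 most like the members over the arrays. Listed genes without a row of their own were not analysed here. Alternatives were a filter on dim genes, trended and robust variance, array weights, quantile normalization, a block for the replicate number, median centring, the mean of a gene's rows, the dimmer Jund row, and leaving out each array.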

Additional observations from a re-analysis of the deposited data

Results flagged for a closer look

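For the members and the other genes named by rule, Dixon's ratio was computed for the most extreme of the 4 arrays per group. Of 60 such groups 5 passed its critical value, where chance at 1 in 20 gives 3. Jund was at 8.64 (log2) in rCPS1 replicate 3, with the other rCPS1 arrays at 9.41 to 9.54. The dimmer Jund row, not among these groups, was at 4.95 there and at 5.12 to 5.18 on the other rCPS1 arrays, a smaller drop. Batf2 was at 7.67 in rTF replicate 2, with the other rTF arrays at 8.68 to 8.79. In rCPS1 replicate 3, Med9 was at 5.91 (other rCPS1 arrays 6.42 to 6.43), Fam167b at 9.29 (9.80 to 9.82) and Cdc42ep1 at 6.05 (6.63 to 6.70). These last 3 genes were chosen for running like the members, so they are not separate from the Jund value.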

How the results depend on the processing

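In none of the alternatives did a member pass limma's threshold: over 161 alternative values the smallest adjusted p was 0.891 and the smallest unadjusted p 0.0851. Of these values 151 kept their sign and 10 turned it, in 6 members. The differences of these 6 were smaller than their standard errors, but so were those of Jun, Fosb and Atf3, which kept their sign. The cause of the turns was not tested. With array weights Egr1 differed by 0.021. Leaving out 1 array at a time gave -0.13 to 0.074 for Egr1, -0.26 to 0.014 for Fos, -0.20 to 0.022 for Junb, -0.18 to 0.010 for Dusp1, -0.39 to 0.038 for Ier2 and -0.21 to 0.077 for Nr4a1. Jun, Jund, Fosb and Atf3 kept their sign when an array was left out, at -0.21 to -0.0066, -0.36 to -0.063, 0.024 to 0.21 and 0.025 to 0.19 in that order. The number of members lower with rCPS1 ran from 3 to 8. The number of genes with an unadjusted p under 0.05 was 547 in place of 1035 when only genes above the median level were tested, which tests fewer genes, and adjusted calls stayed at 0. With the replicate number as a replicate block 997 genes had an unadjusted p under 0.05 and 8 members were lower. No sign that the numbers pair the samples was seen over all genes. With each gene's group mean removed, same-numbered arrays correlated at -0.12 to 0.025. On that measure 0 of 4 rCPS1 arrays correlated best with the rTF array of their own number.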
